A study of Drosophila melanogaster with 2 samples.

Results

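The segmentation genes of the Drosophila embryo were examined for binding of Crc (Cryptocephal), the fly counterpart of the stress response factor ATF4. The 10 genes were chosen by name: the gap genes hb, Kr and kni, the pair-rule genes eve, ftz, odd, slp1 and slp2, and the segment polarity genes en and wg, out of 13945 protein-coding genes on the 6 main chromosome arms. Every summit that lay in one of these genes or within 10 kb of it was taken, from the authors' optimal peaks, which passed a filter on agreement between replicates, and from the longer list of candidates, called on the pooled reads, that went into that filter. Each has the authors' signal value, a measure of peak height within a list, and ranks run from the strongest. Their windows held 48 different candidates of 24369 in the genome, and 1 of these was among the 2420 optimal peaks. On the 6 main arms the 2420 optimal peaks were also the 2420 candidates of highest pooled signal, down to 63.98. A candidate called not optimal here is thus one below that signal, whatever its match between replicates. The data were chromatin immunoprecipitation with sequencing (ChIP-seq) of whole embryos of mixed sex, 0 to 24 h old, from the strain crc-MiMIC-GFP, in which an exon for eGFP inserted in an intron of crc makes the endogenous gene produce a Crc-eGFP fusion, precipitated with an antibody against GFP. There was 1 group of 2 biological replicates, and no untagged or input library was analysed here. Whole embryos of all these ages mix every cell type, so a site bound in few cells or for a short time cannot be told apart from one bound weakly in many.

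Segmentation is the textbook case of a transcription cascade. Gap genes, expressed in broad domains set up by maternal gradients, position the stripes of the pair-rule genes, and these set the narrow stripes of segment polarity genes that mark each segment boundary. The genes are known for enhancers that lie several kilobases away on either side of the transcribed unit, and most are transcribed in a short window of early embryogenesis, with later expression in the nervous system and other tissues. ATF4 factors bind as leucine zipper dimers to a composite C/EBP-ATF response element (CARE).

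The sequences of 3 candidates on which the results turn, the peak that passed the filter and a pair of the strongest that did not, are given as 201 bp around the pooled summit on the forward strand of dm6 (RefSeq copy of Release 6). Capitals mark Motif 1 (GGTCACACT, the element bound by M1BP, searched for after the sequence of the optimal peak had been seen) and the GAGA factor core (GAGAG). The first is the optimal peak between slp1 and slp2, 2L:3832421-3832621. The next is the candidate in the intron of hb, 3R:8694203-8694403, where hb itself runs on the reverse strand. The last is the candidate 3' of slp1 that has a summit in replicate 2 and none within 100 bp in replicate 1, 2L:3827826-3828026.
slp1-slp2 peak: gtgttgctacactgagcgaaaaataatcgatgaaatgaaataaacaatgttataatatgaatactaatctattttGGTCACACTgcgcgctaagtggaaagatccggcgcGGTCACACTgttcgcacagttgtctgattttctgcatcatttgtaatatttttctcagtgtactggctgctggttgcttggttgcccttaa
hb candidate: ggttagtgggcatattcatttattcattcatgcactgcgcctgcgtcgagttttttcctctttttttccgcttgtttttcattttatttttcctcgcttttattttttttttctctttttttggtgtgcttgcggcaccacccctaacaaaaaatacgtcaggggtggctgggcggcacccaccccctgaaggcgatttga
slp1 3' candidate: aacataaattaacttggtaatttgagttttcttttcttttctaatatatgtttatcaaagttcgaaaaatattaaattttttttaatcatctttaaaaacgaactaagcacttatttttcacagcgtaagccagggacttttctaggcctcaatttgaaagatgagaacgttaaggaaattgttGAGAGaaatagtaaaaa
The first holds GGTCACACT at 2 places in the same orientation, with first bases 25 bp before and 10 bp after the summit. The hb sequence, which has long runs of T, holds none of the elements searched. The slp1 3' sequence is AT-rich, with a GC content of 26.4%, the lowest of the 48, and has 1 GAGAG.

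Across the 10 genes, binding past the authors' reproducibility filter was found at a single place. It lay in the windows of slp1 and slp2, so 2 of the 10 genes had an optimal summit within 10 kb, and both counted the same peak, whereas 45.1% of all protein-coding genes had one. From the strongest summits of replicate 1 alone, as many as there are optimal peaks, the count was 4 of 10, near the share of all genes. Candidates of any strength were present at 9 of the 10 genes, against 95.3% of all protein-coding genes, with a median of 4 per gene and a range of 0 to 11, against a median of 6 over all genes. The windows were of similar length, 22791 bp at the median for the 10 genes and 22166 bp for all. Per 100 kb of sequence the merged windows held 21.1 candidates and 0.440 optimal peaks, and the 6 arms as a whole held 18.2 and 1.81. Of the 48 candidates, 2.08% were optimal, against 9.93% of all candidates. These shares are descriptions without a test, since the genes were chosen with earlier results of the same data known.

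Summits close to the starts of transcription were counted separately. No gene of the 10 had an optimal summit within 500 bp of a start, where 11.5% of all protein-coding genes had one, and 3 of 10 (hb, en and wg) had a weaker candidate there, against 45.6%. Among 10 genes, and with a single optimal peak in all their windows, neither count is a result about these genes. Of the 48 candidates, 5 (10.4%, Wilson 95% interval 4.53 to 22.2) lay within 500 bp of a start of any protein-coding gene, against 27.8% of all candidates. They lay at hb, en, wg and, in the window of eve, CG12134 and TER94. The Wilson interval takes the candidates as independent, which those that overlap or share a window may not be, so it serves as no test. At the median, a candidate of the 10 genes lay 5254.5 bp from a start, against 1728 bp for all candidates. By position, 33 of the 48 summits were intergenic and 8 lay in introns. The rest lay in 5' UTRs (2), a 3' UTR (1), coding exons (2) and exons of noncoding RNAs (2). Shares of all candidates by position are not given here, so these counts are no result about the 10 genes.

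**Figure D1:**
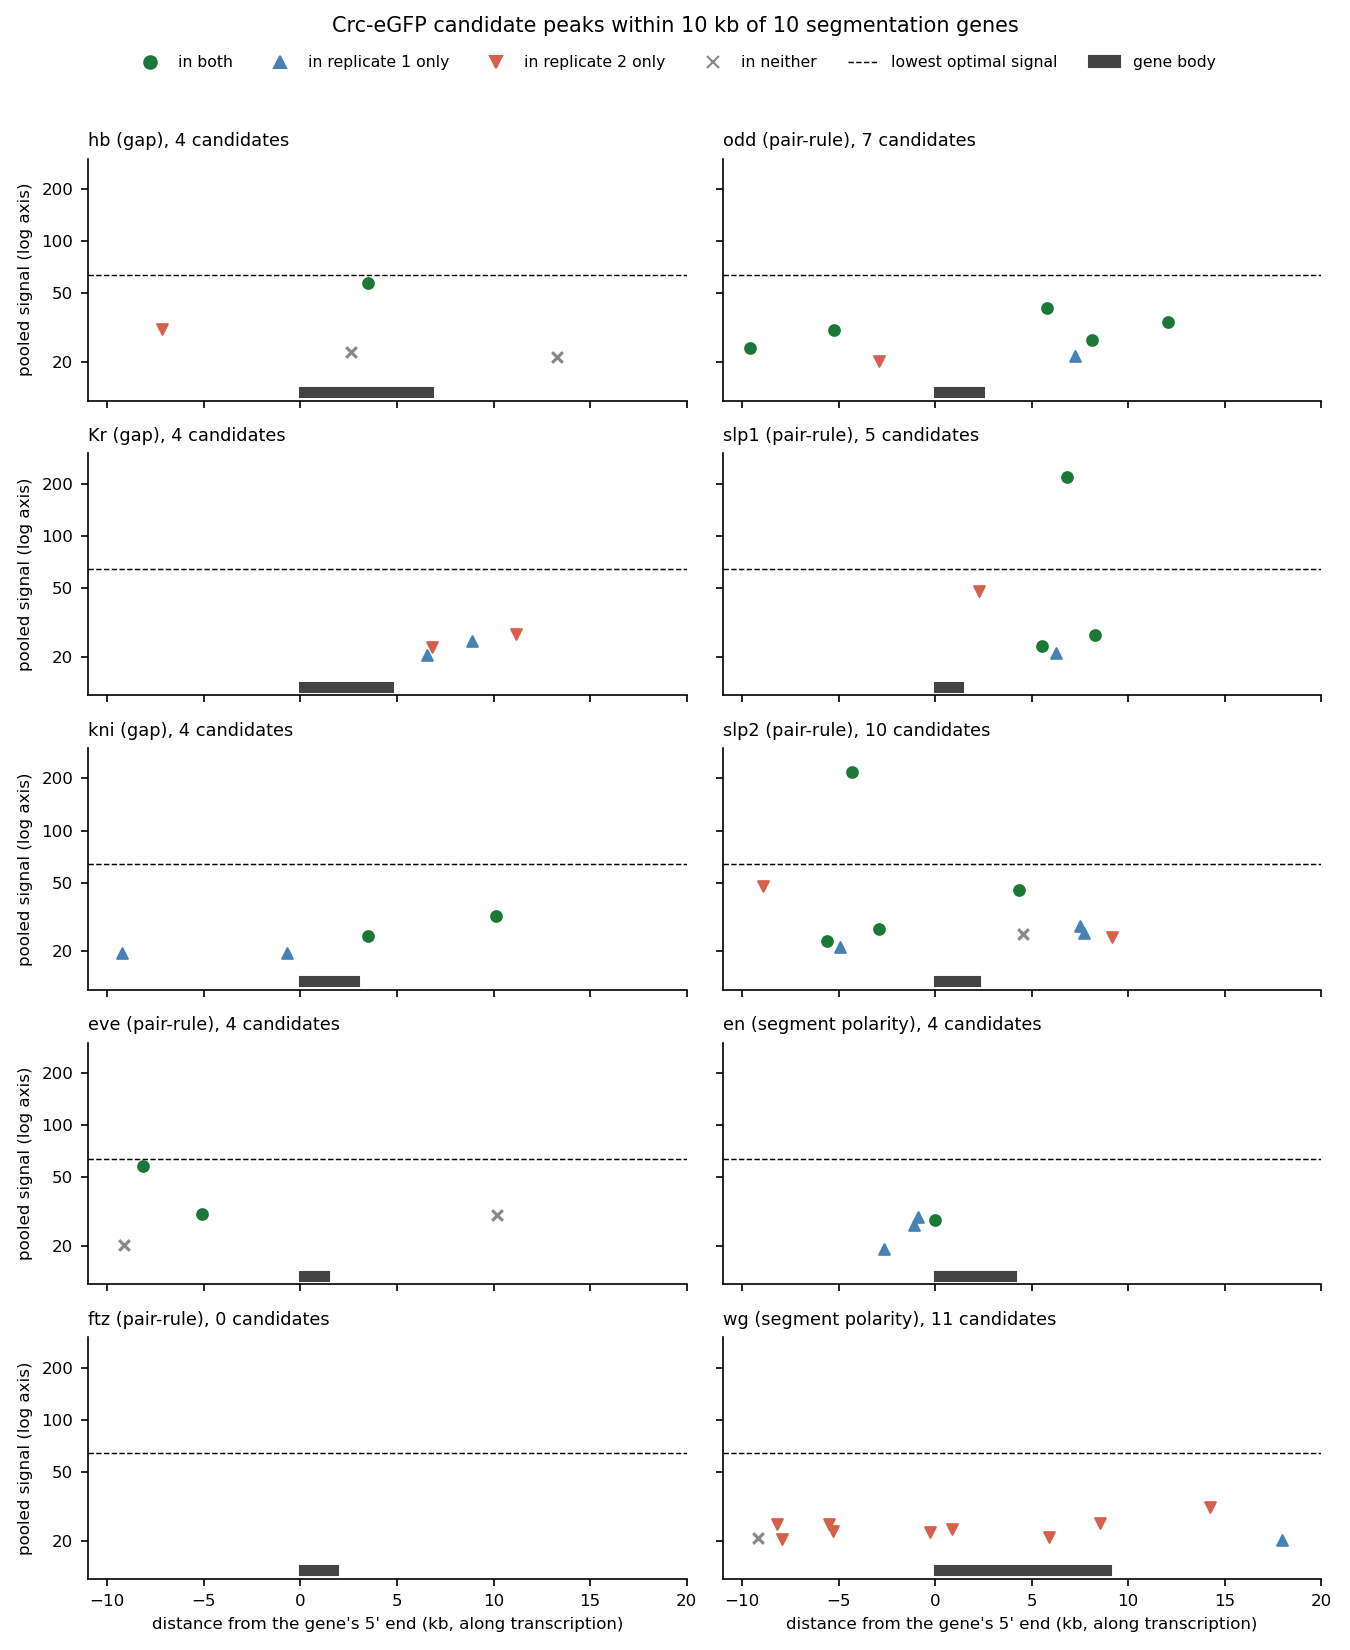
Pooled signal of every candidate (log axis) against its distance from the 5' end of each of the 10 genes in kb, with the gene body as a bar and symbols for the replicates whose own list has a summit within 100 bp. One peak, seen in the slp1 and slp2 panels with a signal of 218.3, lies above the dashed line at the lowest optimal signal of 63.98, and ftz has no candidate.

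The gap genes had 12 candidates and no optimal peak. Gap genes encode zinc finger and nuclear receptor-like transcription factors that divide the early embryo into broad regions. hb (hunchback, FBgn0001180, 3R:8690980-8697822), which specifies the head and thorax, had 4. Its strongest, at 3R:8694103-8694502, had a pooled signal of 57.3 and ranked 2909, where the optimal list ends at rank 2420. The summit lay in an intron, 297 bp downstream of the nearer of the gene's 2 annotated starts. Its signals were 30.7 in replicate 1 (rank 2026) and 23.1 in replicate 2 (rank 5830), so it stood among the 2420 strongest of replicate 1 and outside those of replicate 2. The other 3 had lower pooled signals of 31.2, 23.0 and 21.5. The candidate of 31.2, 7172 bp upstream, was found in replicate 2, and the remaining 2 in neither replicate's own list within 100 bp. The summit of 21.5 lay closer to the start of CG44227 than to hb.

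Kr (Krüppel, FBgn0001325, 2R:25226611-25231394), a zinc finger repressor of the central embryo, had 4 candidates, all 3' of the gene and in introns of CG9380, a gene on the other strand within which Kr lies. Their pooled signals were 27.2, 24.6, 22.8 and 20.6, with ranks between 11129 and 20386. No candidate of Kr had a summit within 100 bp in both replicates: those of 24.6 and 20.6 had a match in replicate 1 (signals 17.9 and 16.6), and those of 27.2 and 22.8 in replicate 2 (ranks 12950 and 6742). Those of 22.8 and 20.6 overlap each other, with summits 6808 and 6557 bp downstream of the start, and each overlaps an interval of both replicates. The region upstream of Kr, where its known enhancers for the early embryo lie, held no pooled candidate within 10 kb. kni (knirps, FBgn0001320, 3L:20692330-20695378), needed for the abdomen, also had 4. The strongest, 9285 bp downstream at 3L:20685071-20685470, had a pooled signal of 32.0, with 19.0 in replicate 1 and 13.4 in replicate 2. A candidate of 24.6, 2683 bp downstream, was likewise found in both, with 14.1 and 11.9. The pair upstream of kni, of 19.7 and 19.6 at distances of 704 and 9258 bp, were found in replicate 1 (19.3 and 12.1) and not in replicate 2, and they lay near the lowest pooled signal of 18.8.

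The pair-rule genes held the peak that stood apart. Pair-rule genes encode homeodomain, zinc finger and forkhead transcription factors expressed in alternate segments. slp1 (FBgn0003430, 2L:3825675-3827099) and slp2 (FBgn0004567, 2L:3836840-3839185), the neighbouring sloppy paired genes for forkhead factors, lie 9740 bp apart on the same strand. The optimal peak in this gap, at 2L:3832393-3832588, had a pooled signal of 218.3 and ranked 234 of 2420. Its signal was 74.3 in replicate 1, where it ranked 376, and 142.6 in replicate 2, where it ranked 201. It was thus among the strongest candidates of either library. The summit was intergenic, 6846 bp downstream of the slp1 start and 4319 bp upstream of the slp2 start, and no annotated gene or noncoding RNA overlapped it. Of all protein-coding genes, 92.6% had a weaker strongest candidate, or none, within 10 kb.

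Around this peak the windows of slp1 and slp2 held 9 more candidates, all below the optimal list. In the same gap, the one 2251 bp from the slp1 start had a pooled signal of 47.9. Its signal in replicate 2 was 37.7, at rank 2537, and replicate 1 had no summit within 100 bp, although an interval of its list overlapped. On the far side of slp2, the one 4327 bp downstream of its start, at 2L:3840967-3841366, had 45.5, with 32.2 in replicate 1 at rank 1847 and 10.4 in replicate 2 at rank 24863. These neighbours of the optimal peak were each higher in rank in a different library. The other 7 had pooled signals from 21.1 to 28.2.

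odd (odd skipped, FBgn0002985, 2L:3604224-3606756), a zinc finger repressor gene, had 7 candidates, of which 5 were found in both replicates. None lay within the gene or within 500 bp of its start. The strongest, 5800 bp downstream of the start at 2L:3600756-3601155, had a pooled signal of 41.4 and ranked 5032, with 14.7 in replicate 1 and 21.4 in replicate 2. The next, 12055 bp downstream, had 34.3, with 22.4 in replicate 1 and 11.8 in replicate 2. Upstream, the strongest had 30.8 at 5222 bp, with 13.0 and 17.2 in replicates 1 and 2. odd had the largest number of candidates found in both libraries among the 10 genes, and none of them was optimal.

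eve (even skipped, FBgn0000606, 2R:9979319-9980795), a homeodomain repressor gene with well-mapped stripe enhancers, had 4 candidates in its window, and each of them had its nearest protein-coding start at another gene. The strongest, at 2R:9970967-9971366, had a pooled signal of 58.2 and ranked 2824, with 31.7 in replicate 1 (rank 1905) and 24.2 in replicate 2 (rank 5377). Its summit lay 24 bp from the start of CG12134 and 8152 bp upstream of eve, in the 5' UTR of CG12134. A candidate of 30.8 lay in the noncoding RNA gene CR46455, 5079 bp upstream of eve, and was found in both replicates with 13.9 and 14.7. The candidate of 30.2 lay in the 5' UTR of TER94, which encodes an AAA ATPase, and that of 20.4 in a coding exon of eIF3j. Neither had a summit within 100 bp in a replicate's own list, but both overlapped an interval of each. The 1477 bp of eve itself held no candidate.

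ftz (fushi tarazu, FBgn0001077, 3R:6864324-6866244), a homeodomain gene within the Antennapedia complex of Hox genes, was the gene of the 10 with no pooled candidate. Each replicate's own list had 1 summit in its window, with a signal of 13.7 at rank 15236 and 5140 bp from the start in replicate 1, and with 9.23 at rank 29985 and 4636 bp from the start in replicate 2. The summit in replicate 2 stands near the end of a list of 30000. The nearest optimal summit lay 48308 bp from ftz and had a signal of 76.6, with Antp, a Hox gene of the same complex, as its nearest start.

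The segment polarity genes had 15 candidates, of which 1 was found in both replicates and none was optimal. Genes of this class maintain the boundary of each segment by signalling between neighbouring cells. en (engrailed, FBgn0000577, 2R:11524006-11528210), the homeodomain gene of posterior compartments, had 4 candidates, all upstream of its nearest start, on the side where its Polycomb response elements are known to lie. The one 20 bp from the start, at 2R:11528030-11528429, had a pooled signal of 28.2, with 11.6 in replicate 1 at rank 22982 and 18.6 in replicate 2 at rank 8607. Its 201 bp around the summit held GAGAG in 6 places, the most of the 48. Those 895, 1107 and 2661 bp upstream had 29.6, 26.6 and 19.2. All 3 were found in replicate 1 (signals 22.0, 16.9 and 13.0) and not in replicate 2, and the first 2 of these intervals overlap each other.

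wg (wingless, FBgn0284084, 2L:7307159-7316265), the gene of a Wnt ligand, had the most candidates, 11, and most of them had a matching summit in replicate 2 alone. Of these, 9 had a summit in replicate 2 and none within 100 bp in replicate 1, 1 had the reverse, and 1 was found in neither. The strongest by pooled signal, 31.5, lay 14214 bp downstream of the start, beyond the gene's end and nearer to the start of Wnt6, and had 15.2 in replicate 2. The strongest in replicate 2 lay 256 bp upstream of the start, with 24.6 there at rank 5239 and a pooled signal of 22.5. Between 8197 bp upstream and 8516 bp downstream of the start there were 8 candidates, with pooled signals from 20.5 to 25.4, all of them with a summit in replicate 2 and none overlapping an interval of replicate 1. By any overlap of the intervals, 3 of the 11 met a candidate of replicate 1 and 9 met one of replicate 2. The own list of replicate 1 had 6 summits in the window of wg, and that of replicate 2 had 9. The strongest of replicate 1 had a signal of 18.9 at rank 6019 and lay 9033 bp from the start. Over the genome, 25.4% of candidates were found in replicate 1 and not in 2, and 29.0% the other way.

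**Figure D2:**
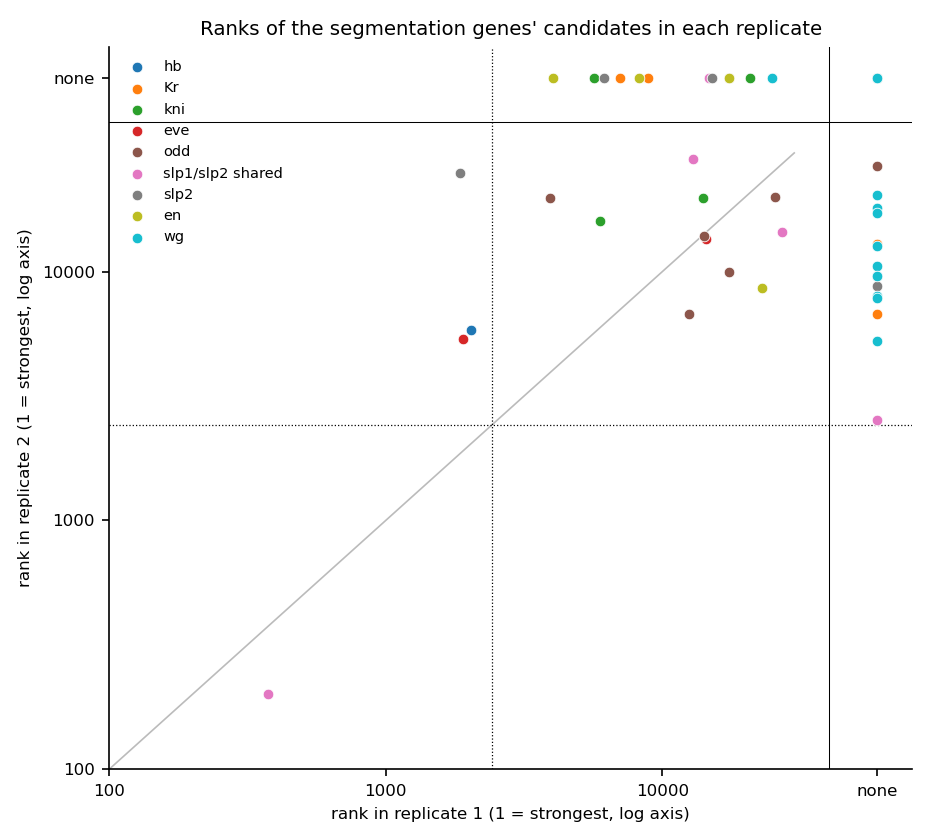
Rank of each of the 48 candidates in replicate 1 (x) and replicate 2 (y), on log axes, with a strip for candidates that have no summit within 100 bp in a list; dotted lines mark rank 2420 and the diagonal marks equal ranks. The slp1-slp2 peak, at ranks 376 and 201, is the point inside both dotted lines, and most wg candidates lie in the strip without a match in replicate 1.

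How often the candidates repeated between replicates was close to the share among others of their strength. A summit of both replicate lists lay within 100 bp of 15 of the 48 (31.2%, Wilson 95% interval 19.9 to 45.3), against 35.6% of all candidates. Of the 47 that were not optimal, whose signals ran from 19.2 to 58.2, 14 were found in both (29.8%), and of all 20494 candidates in that range of signal 29.4% were. The interval for the 48 takes them as independent, although some overlap each other and all lie in the windows of 9 genes, so it serves as no test. By class, 3 of 12 gap gene candidates, 11 of 21 pair-rule and 1 of 15 segment polarity candidates were found in both. Each replicate's own list had 57 summits in the windows. Of these, 4 were among the 2420 strongest of replicate 1 (at slp1-slp2, 3' of slp2, hb and CG12134 in the eve window), and 1, at slp1-slp2, among those of replicate 2. With each library's 2420 strongest in place of the optimal list, the number of the 10 genes with such a peak was 4 with replicate 1 alone, against 46.1% of all protein-coding genes, and 2 with replicate 2 alone, against 44.9%. The low count among the 10 genes was thus not seen in replicate 1, where hb and eve were added. Each list ends at 30000 candidates, with lowest signals of 10.3 in replicate 1 and 9.23 in replicate 2, so summits weaker than these could not be matched. Whether depth differed between the libraries is not given in the files.

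Set among all genes, the strongest candidates of the 10 genes were spread from the lower part of the distribution, through its middle, to the shared slp1-slp2 peak. Their median strongest signal was 41.4 over the 9 genes with a candidate, against 60.9 over all genes with one, and 7 of the 9 lay below that value. These 7 are the genes already counted as having candidates and no optimal peak, since 60.9 lies just under the lowest optimal signal of 63.98. The strongest candidates of eve (58.2) and hb (57.3) exceeded those of 50.4% and 49.7% of genes, counting genes without a candidate as lower. Next came odd with 34.6%, kni with 25.0%, wg with 24.1%, en with 21.3% and Kr with 17.8%. The median candidate was close to the genome-wide one: the median signal was 24.9 for the 48 and 26.1 for all.

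**Figure D3:**
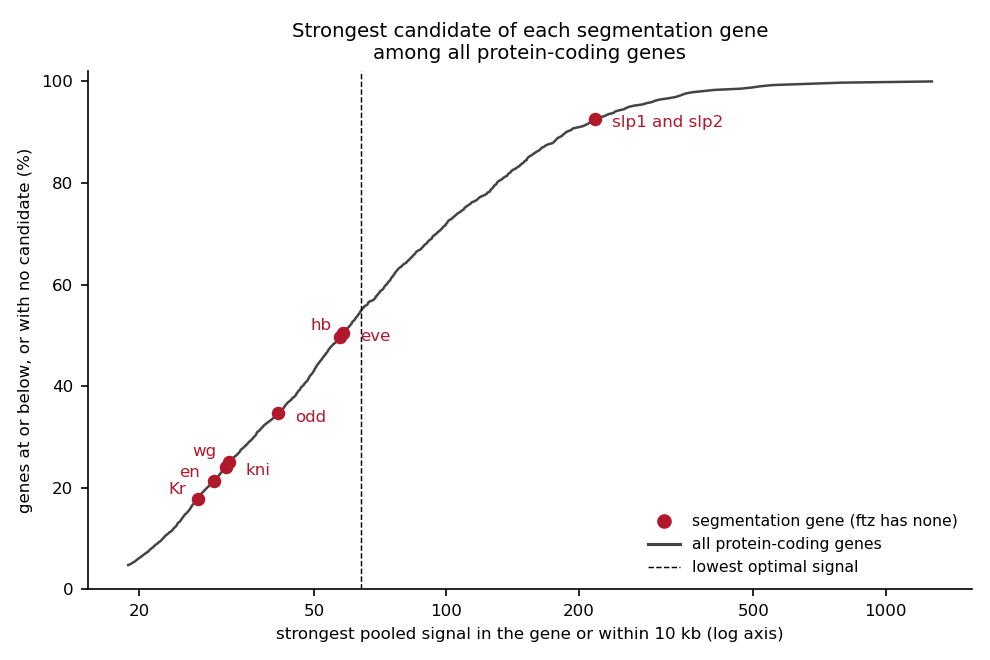
Share of all protein-coding genes whose strongest candidate within 10 kb is at or below a given pooled signal (log axis), counting genes with no candidate as lower, with the segmentation genes as red points. slp1 and slp2 share a point at 218.3, right of the dashed line at the lowest optimal signal, and the other 7 with a candidate lie left of it.

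The nearest optimal summit lay over 10 kb from the gene body at the 8 genes already counted as having none in their windows. Of all protein-coding genes, 45.1% had one in theirs. Over the 10 genes the median distance to the nearest optimal summit was 28954.5 bp, against 12305 bp over all protein-coding genes. At eve it was a peak of 570.7 at Pal1, 19396 bp away and ranked 22 of all peaks. At hb it was a peak of 72.3 112 bp from the start of Unc50, 14255 bp away from hb, and at odd one of 144.9 nearest to the start of for, a cGMP-dependent protein kinase gene, 22235 bp away. For kni, Kr, en and wg the distances were 35674, 59277, 65536 and 67678 bp, and each of these peaks had another gene as its nearest start.

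The other segmentation genes, a list of 56 from the maternal, gap, pair-rule and segment polarity classes, gave a different count. An optimal summit lay within 10 kb of 31 of the 56 (55.4%), against 45.1% of all protein-coding genes. Their gene bodies were longer, with medians of 6803.5 bp in this list, 2791 bp in the 10 genes and 2166 bp in all genes, and their windows held 8 candidates at the median. The part of gene length in the counts was not tested, nor was the difference between the lists. By the classes of this list, 3 of 9 gap genes, 3 of 9 pair-rule genes, 18 of 27 segment polarity genes and 7 of 11 maternal genes had one, with median strongest signals of 53.1, 52.7, 81.7 and 86.7 in that order. The classes were drawn broadly, with cnc placed among the gap genes and Wnt pathway genes such as pygo and fz among the segment polarity genes. Of the 57 different optimal peaks in the windows of the 56 genes, 24 had one of these genes as the nearest start. An optimal peak nearest to the gene's own start was found at 13 of the 56, a larger share than the 12.9% of all protein-coding genes. Among the 10 genes slp2 alone had one.

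Among the other genes, the strongest peaks were those in the windows of pygo (338.4), sgg (278.8), fz (218.1), exu (217.6), dsh (187.1) and nos (186.8). Several were nearest to another gene. The peak of pygo, a cofactor of Wnt signalling, lay 137 bp from the start of CG1635, and that of nos, the posterior determinant, 58 bp from the start of Nsun5. That of exu, a maternal RNA localisation gene, lay in an intron of Fem-1, and that of dsh, a relay of the Wnt signal, in an intron of CG1737. The peak of sgg, the GSK3 kinase gene of the Wnt pathway, was its own, in an intron 229 bp from a start. That of fz, a Frizzled receptor gene, lay in an intron 29684 bp from its start, and CG13482 had the nearest start. Optimal summits within 500 bp of a start were found at 4 of the 56 genes, against 11.5% of all protein-coding genes. They were sgg, nkd, arr and wls, which are among the 27 segment polarity genes of the list, and the peak 352 bp from the start of wls lay nearer, at 97 bp, to that of Adck5. Of the genes without an optimal peak, bcd had a strongest candidate of 58.8, stau 54.3, tor 60.8 and zld 52.5. That of stau lay 76 bp from its own start. Those of bcd, tor and zld lay 3525, 9980 and 12907 bp from theirs, and the nearest starts were of Ama, Coq9 and CG12702. The genes with no candidate at all were gt and Su(fu).

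**Figure D4:**
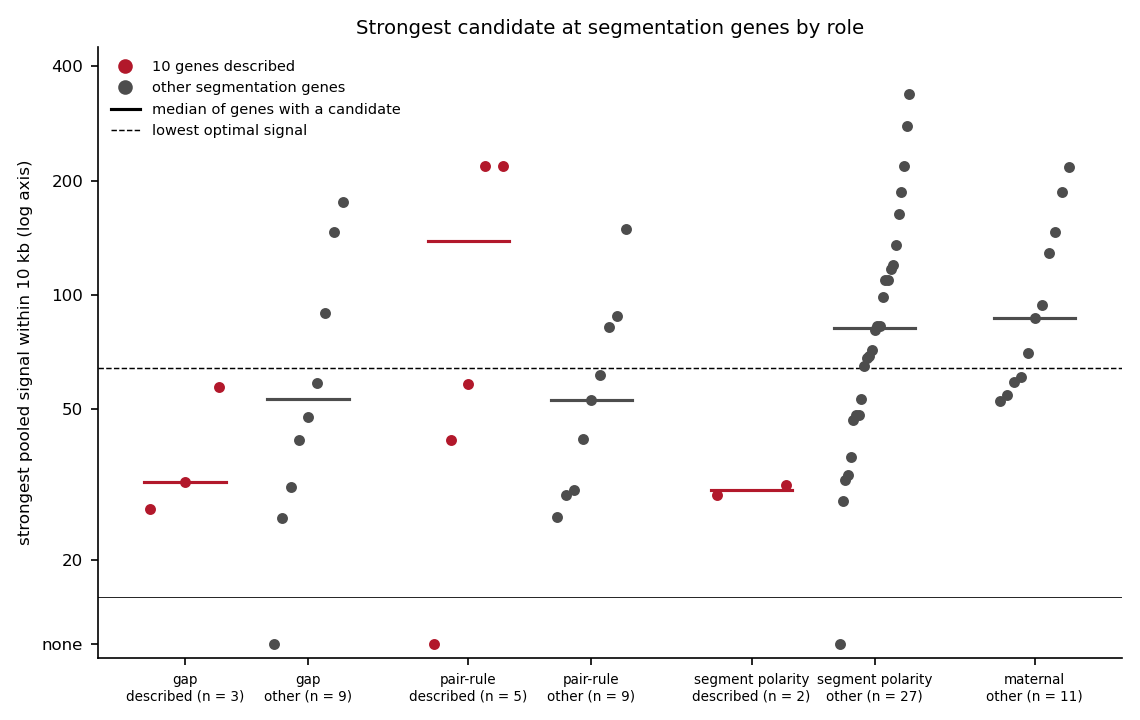
Strongest pooled signal within 10 kb (log axis) of each segmentation gene by class, with the 10 genes described in red left of the other genes of their class in grey, the median of genes with a candidate as a bar, and genes without a candidate in the bottom strip. Of the red points, those of slp1 and slp2, which are the same peak, lie above the dashed line at the lowest optimal signal.

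Of the sequence elements searched, the GAGA core, the shortest of them, was found most often at the candidates of the 10 genes, as it was among all candidates. Within 100 bp of the 48 summits, on either strand, there was no CARE (TGATGNAAT or TGATGNAAC), against 1.46% of all candidates, and no cAMP response element (TGACGTCA), against 0.373%. The AP-1 site (TGACTCA) occurred at 1, a wg candidate of 20.5, against 1.99% of all candidates. The GAGA core GAGAG, which can overlap itself, occurred at 14 (29.2%), against 22.3%, and the site of Zelda, an activator of the early genome (CAGGTAG), at none, against 1.05%. The DNA replication-related element (TATCGATA) occurred at none, against 1.83%. Motif 1 occurred at 1 (2.08%), the slp1-slp2 peak, against 0.895%. At such shares of all candidates, the counts of 0 or 1 among 48 are no result about the 10 genes, and the difference for the GAGA core was not tested. No match says only that these letters are not in these windows, and nothing about the factor. The median GC content was 43.8% for the 48 and 40.3% for all candidates.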

How the data were processed

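ChIP-seq of Crc-eGFP embryos gave, for dm6, 4 peak lists: candidates of replicate 1 and of replicate 2, candidates of the pooled reads, and optimal peaks after the irreproducible discovery rate filter, which compares ranks between replicates. The deposited signal value and the −log10 q value of each peak are the authors'; the signal's normalisation, aligner, peak caller and depth of sequencing were not given in the sources used here. Candidates were made against a control, per the deposited file listings, which was not analysed here. Signal was compared within a list and replicates by rank, with q breaking ties.

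Genes came from Ensembl BDGP6.54 (release 115), on the 6 main arms. Summits within a gene or 10 kb of it were assigned to that gene, each counted once in totals. A candidate was found in a replicate if its list had a summit within 100 bp. Coordinates are 1-based. Of the other segmentation genes, h and nos were matched by synonym. The 10 genes and the lists were chosen with earlier results of these data known, and no test was run. Named are all 10 genes with their strongest candidate and its nearest gene, up to 6 other genes with the strongest optimal peaks, and 4 without one in list order; nkd, arr, wls, gt and Su(fu), and Motif 1, were added after their values were seen. Wilson intervals cover counting error only and take candidates as independent, which those that overlap or share a window may not be. The assignment was checked on planted summits. The dm3 lists were not used. Alternatives varied the distances, the optimal list, the assignment and the replicate used. Software was Python 3.11.15, numpy 2.4.6, pandas 2.3.3, scipy 1.17.1 and matplotlib 3.10.9.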

Additional observations from a re-analysis of the deposited data

How the results depend on the processing

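The number of the 10 genes with an optimal peak, 2 at 10 kb, was 1 at 5 kb (32.4% of all protein-coding genes), 4 at 20 kb (61.6%; hb and eve through peaks at Unc50 and Pal1), 0 in the gene bodies alone (7.78%) and 1 when the nearest start had to be the gene's own (12.9%). Using 1 replicate's strongest candidates in place of the optimal list it ranged from 2 without replicate 1 (44.9%) to 4 without replicate 2 (46.1%). The optimal peaks themselves numbered 3 at 20 kb and 0 in gene bodies, and 1 to 4 with 1 replicate left out, and the genes with one at a start 0 to 1 (hb, from replicate 1). Candidates numbered 25 at 5 kb, 99 at 20 kb and 5 in gene bodies. Their density over that of the genome, 1.16, was 0.999 at 5 kb, 1.33 at 20 kb, 0.729 in gene bodies and 1.12 with either replicate left out. The median signal was 23.4 in gene bodies, and 12.8 to 13.5 in the single-replicate lists, whose signal has its own scale. Candidates found in both replicates numbered 8 of 25 at 5 kb and 28 of 99 at 20 kb, against 35.6% of all. By any overlap they numbered 24 (50%, against 54.7% of all), and with summits within 50 bp 7 of 48. The share of all candidates at 50 bp is not given here, so that count is no result about these candidates. Within 200 bp of a start 1 gene had a candidate. Shares of all genes are not given here for this count, nor for the count of genes with a peak at a start from 1 replicate. Other segmentation genes with an optimal peak numbered 11 in gene bodies (7.78% of all genes), 18 with the stronger 50% of optimal peaks (29.2%) and 13 by nearest start (12.9%). Why the single-replicate lists differ was not tested. The other 25 values computed under alternatives left the value within 1.5 times, or, for the median, within the spread between replicates. No density was among these 25, since both replicates gave the same density and left no spread for it. No paired analysis was possible because there is 1 group. With the read depth unknown, a weak candidate cannot be given a counting error.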

Other observations

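The slp1-slp2 peak was the one optimal peak of 2420 with 2 or more copies of Motif 1 (GGTCACACT) within 100 bp of its summit, a count made after its sequence was seen. Among all 24369 candidates, 4 had 2 or more copies. A single copy or more occurred at 35 optimal peaks (1.45%) and at 218 of all candidates (0.895%). Motif 1 is known from promoters of broadly expressed genes, but of the 1196 optimal peaks over 500 bp from a protein-coding start, where the slp1-slp2 peak lies, 3 had it. A match to these letters is a description and does not show that M1BP or Crc binds them.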
